A study of Mus musculus with 17 samples.

Results

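Transcripts that the liver is known to secrete as plasma proteins were followed in diaphragm muscle, which drives breathing, of mice with and without a tumor: Alb, Saa1, Saa2, Saa3, Hp, Orm1, Fga, Fgb and Fgg. These 9 were taken by symbol, and all 9 were found among the 47643 symbols of the table and among the 13305 that reached 1 TPM in at least 3 of 17 samples. TPM is an abundance scaled for gene length and to the same total in every sample, so levels of different genes can be set side by side.

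RNA was sequenced from the diaphragm, its skeletal muscle portion only, of 17 mice (C57BL/6J males aged 4 months). Tumor-free mice were given mock injections (Control, n = 5) or rFibcd1 (Control + rFibcd1, n = 5). Mice that had received Lewis lung carcinoma cells by subcutaneous injection in the flanks were given mock injections (LLC, n = 3) or rFibcd1 (LLC + rFibcd1, n = 4). rFibcd1 is a recombinant C-terminal fragment of mouse Fibcd1, injected into the peritoneal cavity, and the mock solution was buffered saline with albumin protein. All mice were of 1 strain, sex and age, so by the labels the groups differed in tumor and injection alone, and no batch was named. Each library came from 1 mouse. The comparisons ask whether a tumor, or rFibcd1 with or without a tumor, moves these transcripts in muscle. Tumor-bearing against tumor-free compares the mean of all 7 tumor-bearing with that of all 10 tumor-free mice.

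The acute-phase response is the change in plasma proteins that follows infection, injury or a tumor. Cytokines of the interleukin-6 and interleukin-1 families reach hepatocytes, the main liver cell, and raise transcription of serum amyloid A, fibrinogen, haptoglobin and orosomucoid, while transcription of albumin tends to fall. Fibrinogen is built from 3 chains whose genes lie side by side and are switched on together in hepatocytes. Some acute-phase genes are also expressed outside the liver: Hp and Orm1 in adipocytes, and Saa3 in macrophages and adipose tissue. The diaphragm lies against the liver in the body. In these samples the fibrinogen chains followed Alb most closely, though at a higher level relative to it in some mice, whereas Hp and Saa3 did not follow Alb, Orm1 did so in part, and Saa1 and Saa2 did so with exceptions that are given mouse by mouse.

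On mouse build GRCm38 (GENCODE vM21), Alb, the gene of serum albumin, spans chr5:90460897-90476602. The fibrinogen genes are neighbors, with Fgg (gamma chain) at chr3:83007724-83015049, Fga (alpha chain) at chr3:83026076-83033627 and Fgb (beta chain) at chr3:83040141-83049863. The serum amyloid A genes are also neighbors, with Saa3 at chr7:46711998-46715700, Saa1 at chr7:46740497-46742980 and Saa2 at chr7:46751790-46754313. Orm1, the gene of orosomucoid 1, lies at chr4:63344560-63348163 and Hp, the gene of the hemoglobin-binding haptoglobin, at chr8:109575128-109579172.

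Upstream sequences of 250 bases before the RefSeq transcription start (build GRCm38.p6) were found for 7 of the 9 genes. Those of Alb, the 3 fibrinogen genes, Saa1 and Saa3 are shown because these genes move together or apart in the data that follow. Capitals mark matches, on either strand, to 3 short motifs: CTGGGA, the core of an element that responds to interleukin-6, GTTAAT, a core of sites of the liver factor HNF1, and TTNNGNAA, a pattern bound by C/EBP factors.
Alb, chr5:90460620-90460869, plus strand: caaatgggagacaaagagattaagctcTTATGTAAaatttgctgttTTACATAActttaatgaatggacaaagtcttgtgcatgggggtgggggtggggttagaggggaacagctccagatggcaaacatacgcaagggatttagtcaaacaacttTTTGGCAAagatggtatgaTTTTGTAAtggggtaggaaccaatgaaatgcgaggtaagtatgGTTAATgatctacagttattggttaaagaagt
Fga, chr3:83025903-83026152, plus strand: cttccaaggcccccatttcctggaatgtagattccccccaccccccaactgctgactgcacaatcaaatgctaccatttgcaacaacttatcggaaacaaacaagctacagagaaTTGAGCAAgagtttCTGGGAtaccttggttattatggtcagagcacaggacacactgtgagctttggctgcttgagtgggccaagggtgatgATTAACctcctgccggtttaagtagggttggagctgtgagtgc
Fgb, chr3:83049864-83050113, minus strand: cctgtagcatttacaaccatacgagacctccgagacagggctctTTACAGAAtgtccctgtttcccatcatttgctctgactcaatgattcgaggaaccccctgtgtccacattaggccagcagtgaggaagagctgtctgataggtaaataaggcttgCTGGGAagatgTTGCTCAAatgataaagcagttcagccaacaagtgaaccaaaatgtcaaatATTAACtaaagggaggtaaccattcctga
Fgg, chr3:83007474-83007723, plus strand: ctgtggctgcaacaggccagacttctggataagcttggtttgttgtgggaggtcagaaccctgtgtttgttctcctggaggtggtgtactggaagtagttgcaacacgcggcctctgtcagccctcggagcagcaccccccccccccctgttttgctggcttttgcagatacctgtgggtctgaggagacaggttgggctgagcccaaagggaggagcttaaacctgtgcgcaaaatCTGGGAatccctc
Saa1, chr7:46742981-46743230, minus strand: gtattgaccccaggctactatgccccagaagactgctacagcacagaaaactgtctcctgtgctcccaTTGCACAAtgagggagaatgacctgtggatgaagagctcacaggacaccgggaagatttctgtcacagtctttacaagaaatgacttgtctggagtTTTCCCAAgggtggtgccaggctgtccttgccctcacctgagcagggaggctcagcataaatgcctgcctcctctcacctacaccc
Saa3, chr7:46715677-46715926, minus strand: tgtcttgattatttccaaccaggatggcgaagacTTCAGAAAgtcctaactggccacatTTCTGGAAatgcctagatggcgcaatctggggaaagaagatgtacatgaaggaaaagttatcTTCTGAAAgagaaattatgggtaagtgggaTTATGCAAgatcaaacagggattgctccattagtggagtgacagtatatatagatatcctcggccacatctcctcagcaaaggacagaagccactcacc

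Each of the 3 fibrinogen promoters held CTGGGA, which was absent from the windows of Alb, Saa1, Saa2 and Saa3 and present in 27.0% of the 32851 windows of the same length in RefSeq. GTTAAT was found in Alb, Fga and Fgb, against 6.43% of all windows. TTNNGNAA, present in 36.8% of all windows, had 4 matches each in Alb and Saa3, 2 each in Saa1 and Fgb and 1 each in Saa2 and Fga. No matched letters overlapped between motifs. The promoters of Saa1 and Saa2 were identical at 94.8% of aligned positions, those of Saa1 and Saa3 at 48.5%, and those of the fibrinogen genes at 45.8% to 46.7% of each other.

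Saa1 and Saa2 encode the circulating serum amyloid A proteins and are near copies. Their coding sequences, 366 bases each, differ at 18 positions. The stretch with most differences, bases 50 to 149 of the coding sequence with 11 differences in capitals, shows what a read must cover to be assigned.
Saa1, GENCODE vM21: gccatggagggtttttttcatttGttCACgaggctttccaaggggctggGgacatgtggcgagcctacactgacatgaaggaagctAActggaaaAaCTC
Saa2, GENCODE vM21: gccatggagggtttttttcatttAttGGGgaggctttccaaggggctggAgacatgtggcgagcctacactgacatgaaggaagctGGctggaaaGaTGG

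None of the 510 windows of 100 bases in the Saa1 transcript was found whole in the Saa2 transcript, and 47 of 676 windows of Orm1 were found in its copy Orm2. A read of 100 bases from Saa1 thus holds at least 1 difference from Saa2 unless it has errors, whereas some reads of Orm1 cannot be told from Orm2, and Orm1 is uncertain to that extent.

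Estimated depth was 50800000 to 54600000 reads per sample, and 1 TPM per kilobase of gene length stood for 23.9 to 26.7 reads. Myofiber genes (Acta1, Ckm, 5 others and Ttn) summed to 31376 to 39474 TPM in the 17 samples, as skeletal muscle genes do in the labelled tissue. The 32 genes of a hepatocyte list, which holds none of the 9, reached 1 TPM in 2 to 21 genes in 14 mice and in all 32 genes in 3 mice: Control 4, Control + rFibcd1 2 and LLC + rFibcd1 4. The list without Cyp2e1 and Vtn, which are also expressed elsewhere, summed to 805, 6150 and 567 TPM in these 3 and to 6.06 to 228 TPM in the other 14. These 3 libraries stand apart, and the main results that rest on them are given with and without them. LLC 3, the mouse at 228 TPM, stood apart in another way: 16 hepatocyte genes reached 1 TPM, with Ambp at 88.9 TPM, Mup20 at 49.7 and Ttr at 44.6, and it was highest of all mice in the epithelial keratin genes Krt19 (116 TPM) and Krt8 (59.4) and in the mesothelial sum (348 TPM, against 27.9 to 212 in the other 16). Control 1, a tumor-free mouse with 0.221 TPM of Alb, held part of this pattern at lower levels. It had Ambp at 15.6 TPM, Mup20 at 6.39, Ttr at 6.23 and Krt8 at 15.6, with a mesothelial sum of 107 TPM. These genes were singled out after their values were seen, and their part in the results was not tested. Whether liver tissue came with the muscle in these mice was not tested. In bulk tissue, fewer cells of a type and less RNA per cell cannot be told apart.

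Alb, the most abundant product of hepatocytes, spread over several orders of magnitude inside the groups. Its TPM was 0.221, 1.44, 32.0, 171 and 9.46 in Control 1 to 5 and 1.61, 1934, 12.7, 2.41 and 0.656 in Control + rFibcd1 1 to 5. In LLC 1 to 3 it was 4.69, 0.460 and 6.81, and in LLC + rFibcd1 1 to 4 it was 2.08, 2.57, 0.249 and 166. One mouse in each group but LLC lay above 100 TPM, and the groups overlapped throughout. The median over all mice was 2.57 TPM, and Control + rFibcd1 2 lay 752-fold above it.

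The genes most like Alb over the 17 samples, by Pearson's r of log2(TPM + 1) among 14238 genes that reached 1 TPM, were the apolipoprotein genes Apoa1 (r = 0.997) and Apoa2 (0.987), the major urinary protein genes Mup3 (0.995), Mup14 (0.993), Mup1 (0.986) and Mup7 (0.986), the protease inhibitor genes Serpina1e (0.991) and Serpina1c (0.991), the vitamin D carrier gene Gc (0.987) and the fatty acid carrier gene Fabp1 (0.985). All 10 were highest in Control + rFibcd1 2. Without the 3 mice above 100 TPM of Alb (n = 14) their r was 0.928 (Fabp1) to 0.989 (Serpina1e). These correlations share the library that each point comes from. Of the hepatocyte list, the highest single levels were those of Mup20 (1183 TPM), Mup3 (623), Apoa2 (621), Apoa1 (561) and Serpina3k (500.3), each in Control + rFibcd1 2. Cyp2e1, a cytochrome P450, was the exception, with its highest level of 909 TPM in LLC 1, and at least 58.8 TPM in every sample.

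Fga, Fgb and Fgg followed Alb in single mice. Fga was at 79.6 TPM in Control + rFibcd1 2, 27.9 in LLC + rFibcd1 4 and 7.30 in Control 4, and at most 1.76 in the other 14 mice. Fgb was at 59.4, 21.0 and 6.11 TPM in those mice and at most 1.81 in the others. Fgg was at 85.6, 26.9 and 7.32 TPM and at most 2.55 elsewhere. The same 3 mice were highest in Alb and in each chain, in Control 1 the chains together had 1 read, and 0 reads of Fga or Fgg there allow up to 0.0397 and 0.0571 TPM.

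**Figure D1:**
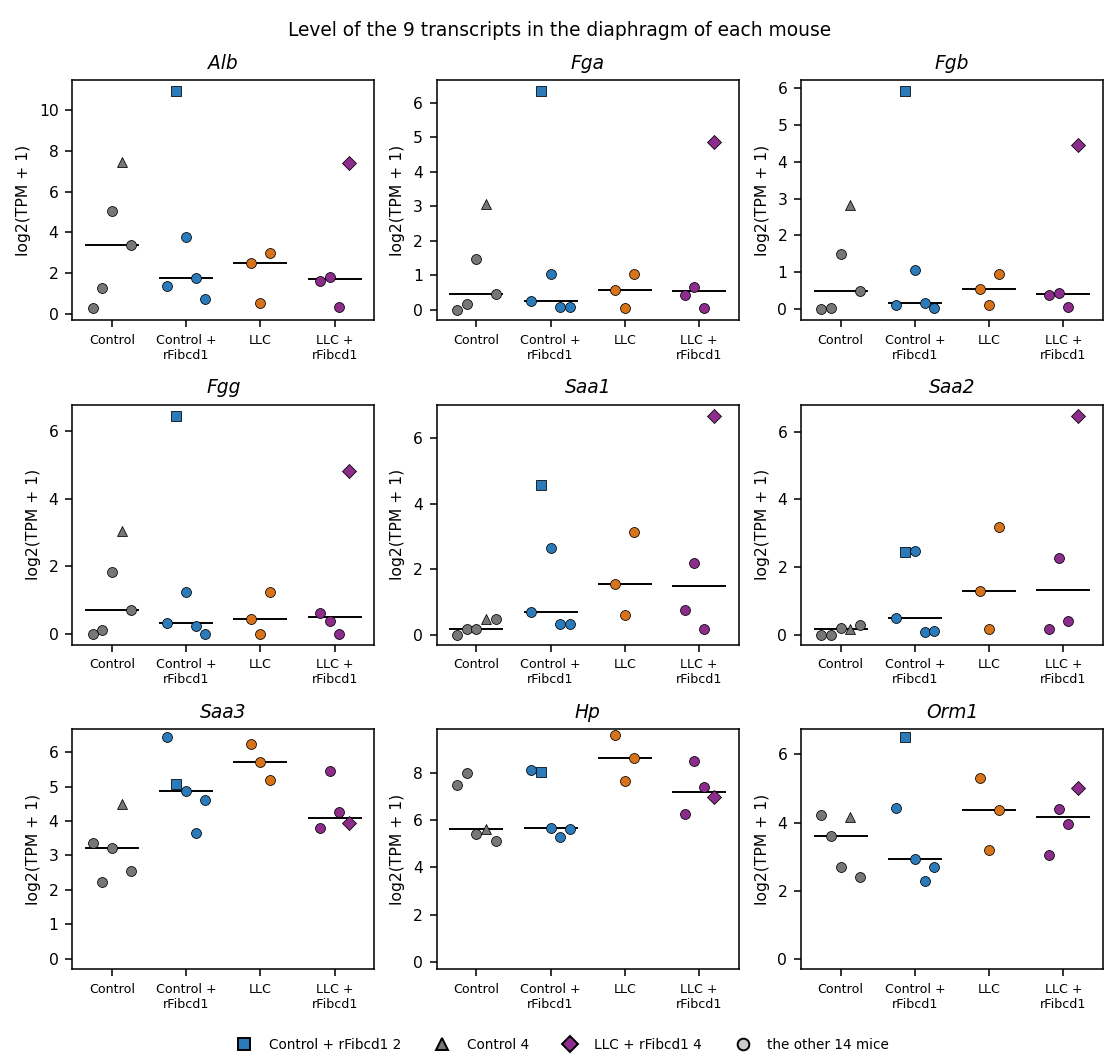
Level of each of the 9 transcripts as log2(TPM + 1), 1 point per mouse by group, with a line at the group median; squares, triangles and diamonds mark the 3 mice above 100 TPM of Alb. Alb, Fga, Fgb and Fgg are high in those 3 mice, Saa1 and Saa2 in LLC + rFibcd1 4 and not in Control 4, while Saa3 is highest in Control + rFibcd1 1 and Hp in LLC 1.

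Over the 17 samples the correlation with Alb was 0.954 for Fga, 0.959 for Fgb and 0.965 for Fgg (Pearson's r of log2(TPM + 1)), with Spearman's rho of 0.949, 0.966 and 0.971. Without the 2 mice highest in Alb (n = 15) r was 0.897, 0.913 and 0.931, and without the 3 above 100 TPM (n = 14) it was 0.911, 0.932 and 0.936. After subtraction of the group means r was 0.969, 0.972 and 0.976, so the chains moved with Alb inside the groups. These correlations describe 17 libraries, and each point takes both genes from the same library.

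Relative to Alb, the summed fibrinogen chains had higher medians in the tumor-bearing groups, with overlap between groups. The 3 chains summed to 4.73%, 17.2%, 19.1%, 12.1% and 14.9% of Alb TPM in Control 1 to 5, and to 33.4%, 11.6%, 28.1%, 14.4% and 16.4% in Control + rFibcd1 1 to 5. They summed to 27.9%, 25.8% and 50.2% in LLC 1 to 3 and to 57.8%, 48.2%, 39.4% and 45.8% in LLC + rFibcd1 1 to 4. The LLC + rFibcd1 mice lay above all tumor-free mice, whereas LLC 1 and LLC 2 lay within the range of Control + rFibcd1.

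For Fgb alone the measured ratios did not overlap. They were at 9.65% to 16.4% of Alb in the 7 tumor-bearing mice and 1.45% to 8.63% in the 10 tumor-free mice. The medians were 13.9% and 4.49%, and the mice at the edge of the gap were not apart beyond counting error, as given below. Of the 8 members set against Alb, Fgb was the only one whose ratio did not overlap, and of the 32 hepatocyte genes there were 0. Of the 13304 genes tested besides Alb, 0.00752% had no overlap in this ratio, which is 1 gene, Fgb. For a gene that does not follow Alb, the ratio spreads with Alb itself, so a low share over all genes says little. Apoa1, the hepatocyte gene most like Alb, was at 28.1% to 65.3% of Alb with a tumor and 29.0% to 69.8% without. Median ratios to Alb were 3.22-fold higher with a tumor for Fga, 3.09-fold for Fgb and 1.90-fold for Fgg. The median over the 32 hepatocyte genes was 1.31-fold, with a range from 0.259-fold to 5.43-fold. The top of that range was Cyp2e1, which is also expressed elsewhere, and Itih3 followed at 3.41-fold. Over the 21 other acute-phase genes the median was 3.31-fold, with 0 of 21 free of overlap. These ratios were formed after the values were seen and carry no test.

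Reads were few in several mice. Fgb in Control 1 was 1 read against 13 of Alb, which gives 4.73% with an exact 95% counting interval of 0.111% to 31.5%, and in LLC + rFibcd1 3 it was 4 reads against 15, with 3.96% to 51.5%. In the deeper pair, LLC + rFibcd1 4 had 12.7% (12.1% to 13.3%) and Control 4 had 3.57% (3.28% to 3.89%). At the edge of the gap, LLC 1 had 9.65% (6.83% to 13.3%) and Control + rFibcd1 3 had 8.63% (6.96% to 10.6%), and these intervals overlapped. Counting intervals cover neither library preparation nor differences between mice.

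**Figure D2:**
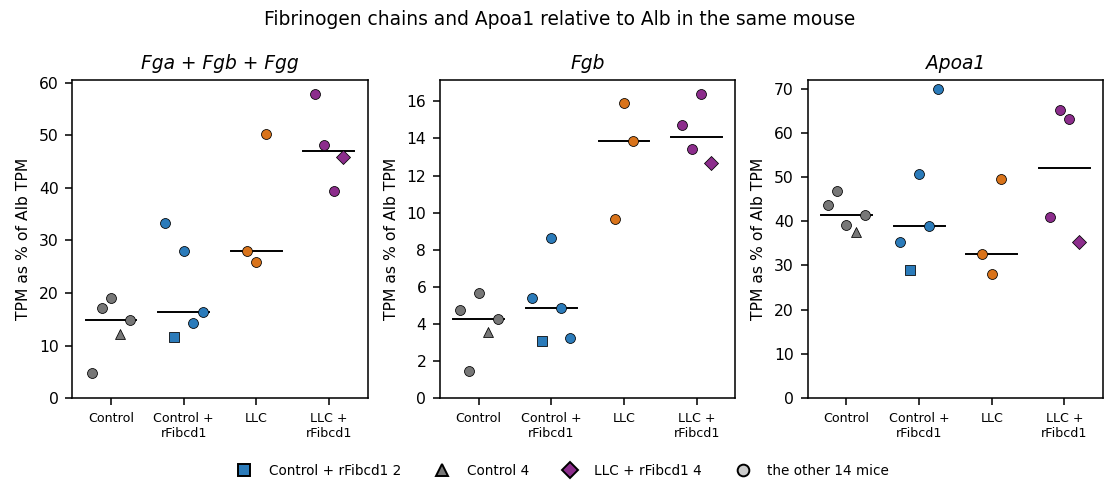
TPM as a percentage of Alb TPM in the same mouse, for the summed fibrinogen chains, for Fgb and for the hepatocyte gene Apoa1, 1 point per mouse with a line at the group median. Fgb lies between 1.45% and 8.63% in tumor-free and between 9.65% and 16.4% in tumor-bearing mice, whereas Apoa1 overlaps.

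Saa1 and Saa2 followed Alb less closely than the chains did and differed widely between mice with similar Alb. Saa1 was at 0, 0.131, 0.138, 0.396 and 0.409 TPM in Control 1 to 5 and at 0.613, 22.6, 5.21, 0.247 and 0.266 in Control + rFibcd1 1 to 5. It was at 1.91, 0.526 and 7.76 TPM in LLC 1 to 3 and at 0.707, 3.55, 0.128 and 101 in LLC + rFibcd1 1 to 4. Control 4, with the second highest Alb, was at the level of the other Controls, and 0 reads in Control 1 allow up to 0.197 TPM.

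Saa2 had the same leading mouse, with 87.6 TPM in LLC + rFibcd1 4, followed by 7.99 in LLC 3, 4.53 in Control + rFibcd1 3, 4.44 in Control + rFibcd1 2, 3.79 in LLC + rFibcd1 2 and 1.45 in LLC 1. In the remaining 11 mice it was at 0 to 0.407 TPM, and Control 4 had 0.131 TPM. Correlation with Alb over 17 samples was 0.655 for Saa1 and 0.511 for Saa2, 0.749 and 0.742 without the 2 mice highest in Alb (n = 15), and 0.394 and 0.390 without the 3 mice above 100 TPM of Alb (n = 14). With group means removed it was 0.804 and 0.669. With the score of a neutrophil list (mean log2(TPM + 1) of 12 genes) r was 0.256 and 0.367, and 0.670 and 0.656 in those 14 mice, but -0.11 and 0.00 over 17 samples with group means removed.

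Control 4 and LLC + rFibcd1 4 had nearly the same Alb, 171 and 166 TPM, and differed in the acute-phase genes. Saa1 was 256-fold higher in LLC + rFibcd1 4 (1572 against 6 reads, exact 95% counting interval 118-fold to 700-fold). Saa2 was 667-fold higher (1363 against 2 reads, 184-fold to 5517-fold). Fga was 3.82-fold (3.48 to 4.20), Fgb 3.44-fold (3.13 to 3.78) and Fgg 3.67-fold higher (3.28 to 4.12). Hp was 2.56-fold and Orm1 1.87-fold higher, whereas Saa3 was at 0.666 of the Control 4 level.

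Of 21 other acute-phase genes, 18 were higher and 3 lower in LLC + rFibcd1 4, with a median ratio of 1.89 against 0.908 over the 32 hepatocyte genes. The highest ratios were those of S100a8 (20.6-fold) and S100a9 (17.1-fold), which are also on the neutrophil list. Of the genes known from liver, Orm2, the copy of Orm1, was 12.7-fold, the fibrinogen-like gene Fgl1 12.8-fold, Apcs, the gene of serum amyloid P, 7.64-fold, the heme carrier gene Hpx 4.73-fold and Saa4 3.76-fold higher. S100a8, Orm2, Fgl1 and Apcs were under 1 TPM in Control 4 (0.692, 0.361, 0.235 and 0.412), so their ratios rest on few reads. The 3 lower genes were Hamp, the gene of the iron hormone hepcidin, at 0.115 of Control 4, the pentraxin gene Ptx3 at 0.697 and the ceruloplasmin gene Cp at 0.851. The quartiles over the hepatocyte genes were 0.618 and 1.18. Apoa1 was at 0.906, Serpina1a at 1.04 and the urea cycle gene Cps1 at 1.02. Cyp3a11, a cytochrome P450, was at 0.190, and Hamp stands on both lists. These are values of 1 mouse each, chosen for their Alb, that differ in tumor and injection together, and there is no replicate check. The genes other than the 9 and Apoa1 were picked here after their values were seen.

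**Figure D3:**
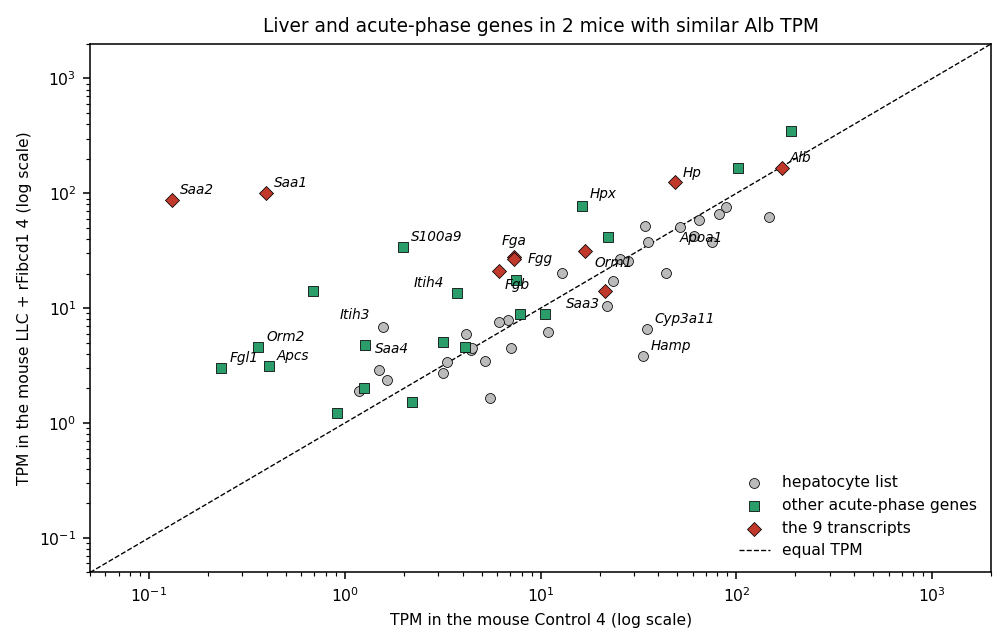
TPM in Control 4 (horizontal) and LLC + rFibcd1 4 (vertical), both on log scales, for the 9 transcripts, other acute-phase genes and the hepatocyte list, leaving out genes at 0 in either mouse or under 1 TPM in both; the dashed line marks equal TPM. Alb and most hepatocyte genes lie near the line, the fibrinogen chains above it, and Saa1 and Saa2 farthest above it.

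Hp was above each fibrinogen chain in all 17 samples and did not follow Alb (r = -0.11 over 17 samples). Its TPM was 176, 256, 42.2, 48.7 and 34.2 in Control 1 to 5, and 280, 259, 49.2, 38.4 and 48.3 in Control + rFibcd1 1 to 5. It was 783, 200.3 and 397 in LLC 1 to 3, and 75.2, 363, 168 and 125 in LLC + rFibcd1 1 to 4. The order of group medians was LLC (397), LLC + rFibcd1 (146), Control + rFibcd1 (49.2) and Control (48.7), and the ranges of every pair of groups overlapped. Control 1 and 2 and Control + rFibcd1 1 and 2 stood well above the rest of their groups.

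Hp moved with the adipocyte list (Adipoq, Plin1, Cidec, Cfd, Lep, Fabp4, Retn and Pparg), with r = 0.869 to the list score over 17 samples and 0.959 in the 14 mice under 100 TPM of Alb. After subtraction of the group means r was 0.816. Hp also moved with the macrophage score (r = 0.796, 0.831 in the 14 mice and 0.673 with group means removed) and the mesothelial score (0.745, 0.768 and 0.682). The summed TPM of the adipocyte list was 851 to 3126 in Control, 963 to 3896 in Control + rFibcd1, 1943 to 8117 in LLC and 1082 to 4204 in LLC + rFibcd1, and LLC 1 was highest in both. Of the 3 mice above 100 TPM of Alb, 2 departed from this, with 259 TPM of Hp at an adipocyte sum of 1123 in Control + rFibcd1 2 and 125 TPM at 1082 in LLC + rFibcd1 4, whereas Control 4 had 48.7 TPM at 1017, close to Control + rFibcd1 3 with 49.2 TPM at 1009.

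Orm1 showed both patterns. It was at 91.1 TPM in Control + rFibcd1 2, 38.6 in LLC 1 and 31.4 in LLC + rFibcd1 4, so 2 of its 3 highest mice were among the 3 highest in Alb. In Control it ranged from 4.33 to 17.8 TPM, in the other Control + rFibcd1 mice from 3.91 to 20.6, in LLC from 8.13 to 38.6 and in the other LLC + rFibcd1 mice from 7.30 to 19.9. Its correlation with the adipocyte score was 0.436 over 17 samples and 0.952 in the 14 mice under 100 TPM of Alb, where that with Alb was -0.24.

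**Figure D4:**
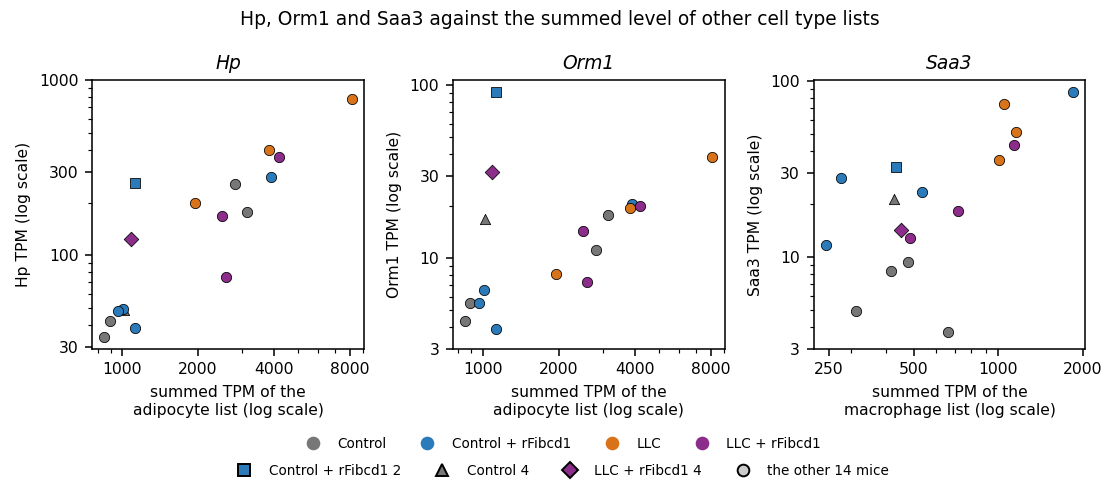
TPM of Hp and Orm1 against the summed TPM of the adipocyte list, and of Saa3 against that of the macrophage list, 1 point per mouse, all axes on log scales. Hp rises with the adipocyte sum from 34.2 to 783 TPM, and Orm1 does so apart from the 3 marked mice. Saa3 is highest in Control + rFibcd1 1, the mouse with the highest macrophage sum, most of which is Lyz2 (1459 of 1842 TPM).

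Saa3, a serum amyloid A known from macrophages and adipose tissue, was at 9.29, 3.73, 8.26, 21.4 and 4.91 TPM in Control 1 to 5. In Control + rFibcd1 1 to 5 it was at 86.4, 32.4, 28.2, 11.6 and 23.4 TPM, in LLC 1 to 3 at 74.0, 51.4 and 35.4, and in LLC + rFibcd1 1 to 4 at 12.9, 43.1, 18.1 and 14.2. The 3 LLC mice lay above all 5 Controls. The mean was 53.6 ± 19.4 TPM for the 3 LLC mice, followed by Control + rFibcd1 with 36.4 ± 29.0, LLC + rFibcd1 with 22.1 ± 14.2 and Control with 9.52 ± 7.03, each with its SD. Among these, neighbors in the order overlapped.

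Saa3 did not follow Alb (r = 0.00 over 17 samples, 0.15 with group means removed). Its correlation with the macrophage score was 0.616, and 0.619 with group means removed. Control + rFibcd1 1, the mouse highest in Saa3, was also highest in the macrophage sum (1842 TPM, against 244 to 1158 in the other 16). Most of that sum was Lyz2 (1459 TPM), a lysozyme gene of macrophages singled out after its values were seen and highest in this mouse. By the macrophage score, the mean log2(TPM + 1) of the list, this mouse was at 5.11. LLC + rFibcd1 2 (5.16) and LLC 2 (5.14) were above it. The genes most like Saa3 were the endothelial adhesion gene Selp (r = 0.773), the lipoxygenase gene Alox15 (0.766), the lubricin gene Prg4 (0.765), Purg (0.759), the immunoglobulin segment Ighv1-59 (0.758), the protease inhibitor gene Serpinb2 (0.757), B230354K17Rik (0.756), the natural killer receptor gene Klra2 (0.751), the coagulation gene F5 (0.742) and the fibronectin gene Fn1 (0.741). Of these, 7 were highest in Control + rFibcd1 1, the mouse highest in Saa3.

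Differences between groups were tested with limma on log2(TPM + 1) across 13305 genes, with Benjamini-Hochberg adjusted p-values. In LLC against Control, 2 of the 9 passed an adjusted p of 0.05, where 35.8% of all genes did. Saa3 rose by 2.54 ± 0.58 on the log2 scale (SE, adjusted p = 0.0112) and Hp by 2.30 ± 0.83 (adjusted p = 0.0429). The median of all genes was at 0.16 in this comparison, and relative to it Saa3 stood 2.37 and Hp 2.14 higher. After median-ratio scaling, which brought that median to 0.01, Saa3 was at 2.36 (adjusted p = 0.0121) and Hp at 2.11 (0.0539). Saa1, at 1.49 ± 1.24 (adjusted p = 0.352), Saa2, at 1.42 ± 1.14 (0.333), and Orm1, at 0.86 ± 0.82 (0.42), did not pass, nor did Alb, at -1.48 ± 2.20 (0.615), or the chains, at -0.57 to -0.44.

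Of the 9, Saa1 and Saa3 were higher in all 3 LLC mice than in all 5 Controls, where 40.2% of all genes had no overlap in either direction. For Saa1 this rested on few reads, with 8 in LLC 2 against 6 each in Control 4 and Control 5. At an unadjusted p under 0.05, Saa3 and Hp were the 2 members called, against 48.3% of all genes. Each of these counts, 2 of 9, is a smaller share than that over all genes.

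The Hp call was fragile. Without LLC 1 the change was 1.81 (adjusted p = 0.173) and without LLC 3 it was 2.30 (0.122). It also missed the threshold without Control 3 (2.07, 0.0862), Control 4 (2.12, 0.0835), Control 5 (2.00, 0.0917), LLC + rFibcd1 3 (2.30, 0.0507) or LLC + rFibcd1 4 (2.30, 0.0501), and held without any of the other 10 mice. Of the fits that left out 1 mouse, Saa3 missed the threshold only without LLC 3 (2.80, 0.0663), where 24 of the 13305 genes passed in place of 4759. Without LLC 1, 2272 genes passed. Without LLC 3, Saa1 was at 0.81 ± 1.42 (0.715) and Saa2 at 0.61 ± 1.27 (0.759). By Dunn's test with the same adjustment, Saa3 and Hp both had an adjusted p of 0.118. With the adipocyte score in the model the Hp change was 0.83 ± 0.57 (adjusted p = 0.357) and that of Saa3 2.03 ± 0.62 (0.0893), and with the macrophage score they were 0.76 ± 0.78 (0.602) and 1.55 ± 0.57 (0.213). Over all genes, 76 passed with the adipocyte score and 3 with the macrophage score, in place of 4759, so the loss was not one of Hp and Saa3 alone. The part of these cell types in the changes was not tested beyond those fits.

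In tumor-bearing against tumor-free mice, 0 of the 9 passed by limma, where 44.8% of all genes did, and 2 were at an unadjusted p under 0.05, where 53.5% were. These 2 were Hp, at 1.42 ± 0.56 (limma, adjusted p = 0.0505), and Saa3, at 0.89 ± 0.39 (0.0748). The 7 tumor-bearing and 10 tumor-free mice overlapped in each of the 9, where 2.26% of all genes had no overlap. Saa1 stood at 1.17 ± 0.84 (0.263), Saa2 at 1.37 ± 0.77 (0.154) and Orm1 at 0.58 ± 0.56 (0.406). Without the 3 mice above 100 TPM of Alb, Hp (1.67 ± 0.62, 0.0476) and Saa3 (1.23 ± 0.41, 0.0312) passed, as did 42.3% of all genes.

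With the hepatocyte score in the model, the standard errors of the fibrinogen chains fell from 0.85 to 0.92 down to 0.17 to 0.18. Tumor-bearing mice then stood 0.40 ± 0.18 higher in Fga (adjusted p = 0.078), 0.34 ± 0.17 in Fgb (0.106) and 0.30 ± 0.18 in Fgg (0.196), where the values without the score were -0.20 ± 0.91, -0.22 ± 0.85 and -0.31 ± 0.92. Saa1 (1.61 ± 0.55, adjusted p = 0.0327) and Saa2 (1.69 ± 0.63, 0.0454) passed with the score, as did 41.2% of all genes. Both genes reached 1 TPM in 4 tumor-bearing and 2 tumor-free mice, so they met the filter of 3 samples only with the tumor-bearing mice counted, and the direction of these calls carries no weight as a test. Both calls rested on LLC + rFibcd1 4, without which Saa1 was at 0.96 ± 0.41 (0.0706) and Saa2 at 0.94 ± 0.46 (0.109), and the Saa2 call also on Control 4 (1.54 ± 0.63, 0.0683). On the log2(TPM + 1) scale the chains carry little weight in mice under 1 TPM, and without LLC + rFibcd1 4 they stood at 0.03 to 0.13.

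**Figure D5:**
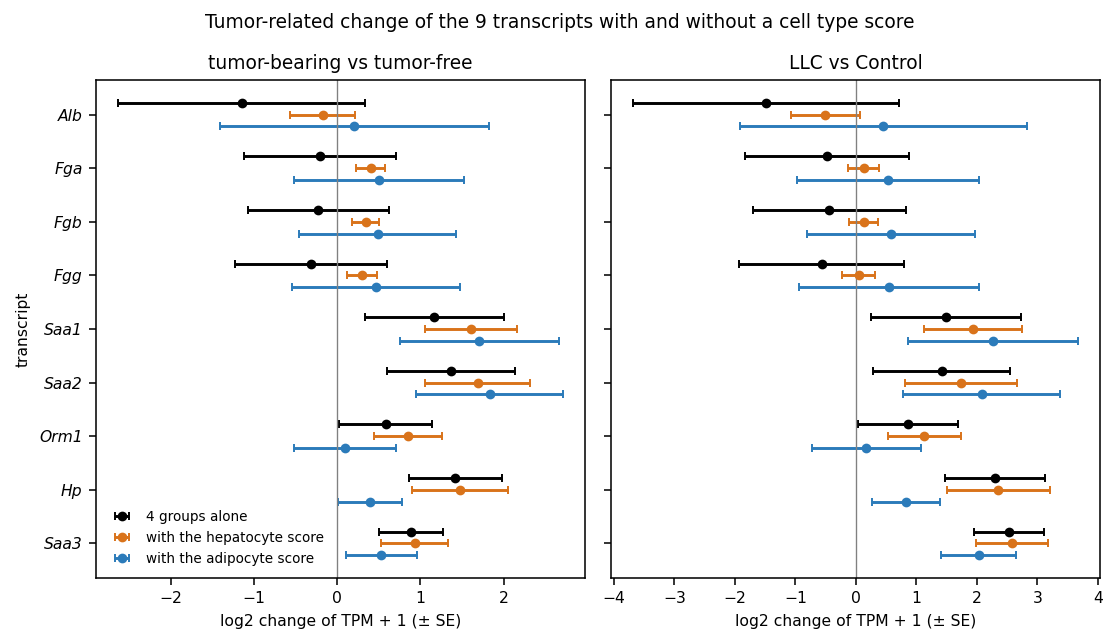
log2 change of TPM + 1 with SE for each of the 9 transcripts, in tumor-bearing against tumor-free mice (left) and in LLC against Control (right), from the 4 groups alone and with the score of the hepatocyte or the adipocyte list in the model. The hepatocyte score narrows the error of Alb and the fibrinogen chains, and the adipocyte score lowers the change of Hp from 2.30 to 0.83 in LLC against Control.

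For rFibcd1, 0 of the 9 passed by limma or by Dunn's test with the same adjustment, with or without a tumor. In LLC + rFibcd1 against LLC 0.113% of all genes passed, and 1 member was at an unadjusted p under 0.05, where 22.7% of genes were: Saa3, at -1.35 ± 0.60 (limma, adjusted p = 0.211). Hp stood at -1.35 ± 0.87 (0.318) and Alb at 0.78 ± 2.30 (0.834). In Control + rFibcd1 against Control 0% of genes passed, and Saa3 was again the only member at an unadjusted p under 0.05, where 4.39% of genes were, with 1.76 ± 0.50 (limma, adjusted p = 0.927). Without Control + rFibcd1 1, the mouse highest in Saa3, the Saa3 change was 1.38 ± 0.45 (adjusted p = 0.549). In the interaction of tumor and rFibcd1 0% of genes passed and 8.58% were at an unadjusted p under 0.05, among them Saa3 at -3.10 ± 0.78 (adjusted p = 0.166). The 2 rFibcd1 comparisons and the interaction share samples with LLC against Control.

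Acute-phase genes outside the 9 were listed as well. Of 21, 19 could be tested, and with a tumor 6 rose and 0 fell over all 17 mice, where 38.8% of all genes rose and 5.98% fell. This split over all genes depended on the scaling, with 19.1% higher and 17.1% lower after median-ratio scaling, 1819 genes higher and 3325 lower of 13305 after quantile normalization, and 25.2% higher and 11.3% lower after rescaling without mitochondrially encoded genes, and the median over all genes moved from 0.13 to 0.01, -0.06 and 0.07. Under each of these 3 scalings 3 of the 19 rose (S100a9, S100a8 and Serpina3n) and 1 fell (the pentraxin gene Ptx3). The median over the 19 was 0.24 against 0.13 over all genes. The 6 were the alarmin genes S100a9 (3.17 ± 0.57, limma adjusted p = 0.00179) and S100a8 (2.83 ± 0.51, 0.00179), the protease inhibitor gene Serpina3n (1.16 ± 0.21, 0.0016), complement C3 (0.77 ± 0.29, 0.0439), the metallothionein gene Mt2 (0.73 ± 0.25, 0.0289) and the endotoxin carrier gene Lbp (0.27 ± 0.10, 0.0411). S100a8 and S100a9 also stand on the neutrophil list, which summed to 46.1 to 212 TPM in tumor-bearing and 1.95 to 79.8 TPM in tumor-free mice. Serpina3n was at 17.6 to 28.7 TPM in tumor-bearing mice and 4.94 to 19.2 TPM in tumor-free mice, so the groups overlapped only by Control + rFibcd1 2.

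Of 20 genes of acute-phase signaling, 16 could be tested, and 8 rose and 0 fell in the same comparison, against the same 38.8% and 5.98% of all genes, with a median of 0.34. Under the other scalings 5 (median-ratio and quantile) or 6 rose and 1 fell, which was Jak2, the kinase gene upstream of STAT3. Il1b, Il1r1, Osmr and Stat3 rose under all 3, and Socs3 and Tnf under none. The largest changes were those of the cytokine gene Il1b (1.34 ± 0.18, limma adjusted p = 0.000447), Socs3, which feeds back on STAT3 (0.69 ± 0.24, 0.0284), the receptor genes Il1r1 (0.63 ± 0.12, 0.00224), Osmr (0.53 ± 0.08, 0.000539) and Tlr2 (0.50 ± 0.15, 0.0149), and Tnf (0.54 ± 0.19, 0.0333). Il1b reached 1 TPM in 7 tumor-bearing and 1 tumor-free mouse, and Tnf in 4 and 1, so both met the filter through the mice in which they are high and their direction carries no weight as a test. Il6, the cytokine best known for driving the response, was at 0 to 0.214 TPM in all mice and entered no test. Of the 32 hepatocyte genes, 0 passed in this comparison by limma and 0 were at an unadjusted p under 0.05, and their median was -0.50.

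Lists of other cell types were tested in the same fit between all tumor-bearing and all tumor-free mice. In limma at an adjusted p of 0.05, 5 of the 5 tested neutrophil genes, 6 of 10 macrophage genes, 2 of 8 mesothelial genes and 1 of 8 adipocyte genes rose, and 4 of 8 myofiber genes fell, where 38.8% of all genes rose and 5.98% fell. Under the 3 other scalings, which bring the share of all genes that fell to at least 11.3%, 5 neutrophil genes, 5 macrophage genes, 0 or 1 mesothelial and 0 or 1 adipocyte genes rose, and 3 (quantile) or 4 myofiber genes fell. Of the 12 listed neutrophil genes the other 7 did not meet the filter, and Retnlg and Cxcr2 met it through tumor-bearing mice, as did Muc16, 1 of the 2 mesothelial genes called (the other was Wt1), so the neutrophil and mesothelial counts are a description. Their part in the values of the 9 transcripts was not tested beyond the fits with list scores.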

How the data were processed

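RNA of the diaphragm of 17 mice was sequenced, and the authors mapped reads to mouse build GRCm38 in CLC Genomics Workbench and deposited TPM per gene symbol. The labels and the study's methods name different library kits, so whether counting used strand is not known, and overlapping or antisense genes are uncertain. All columns belonged to a labelled sample. TPM hold no totals, and depth was estimated from the steps of low values: 79.3% to 81.9% of low values were within 0.02 of a whole read, where chance gives 4%. Reads of single genes are estimates from these steps. Zero values were given the limit that 3 reads allow, and intervals are exact, at 95%, for counting error only.

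The 13305 genes that reached 1 TPM in 3 samples or more were fitted on log2(TPM + 1) in limma 3.58.1 (R 4.3.3, eBayes with trend) with 4 groups, 13 residual degrees of freedom, two-sided tests and Benjamini-Hochberg adjustment over all genes. Because of the pseudocount, changes of low genes come out too small. The script was tested on simulated data. Alternatives were the filter, a pseudocount of 0.1, other scalings, Dunn's test, only the groups compared, list scores as covariates, a replicate block and leaving out mice. A list score is the mean log2(TPM + 1) of its genes.

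The 9 transcripts and the lists (hepatocyte, other acute-phase, acute-phase signaling, neutrophil, macrophage, adipocyte, mesothelial and myofiber) were chosen with earlier results of these data known. Named besides the 9 were up to 6 genes with the largest change past an adjusted p of 0.05 in each acute-phase list, the 6 hepatocyte genes with the highest single TPM, and the 10 genes most correlated with Alb and with Saa3. The fits without the 3 mice above 100 TPM of Alb, with adipocyte or macrophage scores, and with the hepatocyte score and those mice left out were added after the data were seen. Positions are from GENCODE vM21, for which 45090 of 47643 symbols (94.6%) matched, and promoters from RefSeq on GRCm38.p6. Hp and Orm1 promoters were not used here.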

Additional observations from a re-analysis of the deposited data

Results flagged for a closer look

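In groups of 4 or 5 mice, a mouse far from the others was marked by Dixon's test on log2(TPM + 1) in 6 of the 27 combinations of transcript and group examined, and chance marks about 1 in 20. All 6 were fibrinogen chains in 2 of the mice above 100 TPM of Alb, and as the 3 chains move together the marks are not independent. In Control + rFibcd1 2, Fga was at 79.6 TPM, Fgb at 59.4 TPM and Fgg at 85.6 TPM. In LLC + rFibcd1 4, Fga was at 27.9 TPM, Fgb at 21.0 TPM and Fgg at 26.9 TPM. These are the 2 mice of their groups in which all 32 hepatocyte genes reached 1 TPM.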

How the results depend on the processing

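In LLC against Control the count of the 9 past an adjusted p of 0.05, 2 in the fit reported, was 1 (Saa3) with no filter on low values, with median-ratio scaling, after rescaling without mitochondrially encoded genes, without the 3 mice above 100 TPM of Alb, and with the hepatocyte score when Control + rFibcd1 2, Control 4 or all 3 were left out. It was 0 with the adipocyte score, with the macrophage score and by Dunn's test, where 76, 3 and 0 genes passed in all. Leaving out 1 mouse gave 0 to 2.

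In tumor-bearing against tumor-free mice the count was 0 in the fit reported. With the hepatocyte score it was 2 (Saa1 and Saa2, which met the filter through tumor-bearing mice), where 41.2% of all genes passed, and it was 2 (Saa3 and Hp) without the 3 mice, where 42.3% did. With the score and LLC + rFibcd1 4 left out it was 2 (Saa3 and Hp), with Control + rFibcd1 2 left out 3, with Control 4 left out 1 and with all 3 left out 1. Leaving out 1 mouse gave 0 to 2: Saa3 and Hp without Control + rFibcd1 1, LLC + rFibcd1 1 or LLC + rFibcd1 4, and Hp without Control + rFibcd1 2, Control 1 or Control 2. The cause was not tested. The other 3 comparisons stayed at 0 in each setting run, and no called change reversed.

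Replicate numbers did not pair the mice: the 22 pairs with the same number had correlations of deviations from -0.459 to 0.485 (median -0.061), 4 of them over 0.1. With the replicate block, 0 of the 9 passed in LLC against Control (Saa3 2.35, limma adjusted p = 0.0622, and Hp 1.72, 0.105), and over all genes 5 passed in place of 4759, and 3782 in place of 5963 between all tumor-bearing and all tumor-free mice. By Dunn's test 0 genes passed in LLC against Control, and 4993 were at an unadjusted p under 0.05. Low reads limit Saa1, Saa2 and the chains in most mice.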
